A study of Homo sapiens with 8 samples.

Results

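*NMRAL2P*, *OSGIN1*, *TRIM16*, *TRIM16L*, *CABYR* and *ABHD4* are 6 less-studied genes that responded to diethyl maleate (DEM) in lung adenocarcinoma cells. They were chosen by symbol, because earlier results of the same libraries had shown their response, and each symbol matched 1 of the 57815 gene identifiers with an expression value. Their response to DEM is therefore described below without a test. The cells were ABC1 and HCC4006, established human lung adenocarcinoma lines that carry no *KEAP1* or *NRF2* mutation according to the labels. Each line was kept in low-glucose DMEM with 10% fetal bovine serum and received 100 μM DEM or the vehicle DMSO for 16 h. Each of the 4 groups had 2 polyA-selected, strand-specific RNA-seq libraries, which makes 8 libraries in all. The study calls them biological duplicates, and the p-values below measure only the spread between these libraries.

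NRF2 is a transcription factor that KEAP1 holds at a low level by sending it to the proteasome. Electrophiles such as DEM modify cysteines of KEAP1, so NRF2 accumulates, pairs with a small MAF protein and binds antioxidant response elements of detoxification genes. The 6 genes have different roles. *NMRAL2P* is a transcribed pseudogene of the *NMRAL1* family, whose coding member gives a NADPH-sensing protein. *OSGIN1* encodes an oxidative stress-induced growth inhibitor. *TRIM16* encodes a tripartite motif protein that is known from the handling of damaged lysosomes and of misfolded proteins, and *TRIM16L* is a shorter copy of it on the same chromosome. *CABYR* encodes a calcium-binding protein of the sperm tail that tumour cells can express. *ABHD4* encodes an alpha/beta hydrolase that removes acyl chains from N-acyl phospholipids on a route to N-acylethanolamines.

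On GRCh37, the assembly that hg19 names, *NMRAL2P* (ENSG00000171658.4) lies at chr3:185677828-185697626 on the plus strand and *OSGIN1* (ENSG00000140961.8) at chr16:83964916-83999937 on the plus strand. *TRIM16* (ENSG00000221926.7) lies at chr17:15531274-15587625 on the minus strand and *TRIM16L* (ENSG00000108448.16) at chr17:18625550-18638773 on the plus strand. *CABYR* (ENSG00000154040.16) lies at chr18:21718951-21741564 and *ABHD4* (ENSG00000100439.6) at chr14:23067199-23081869, both on the plus strand. The GENCODE annotation lifted to GRCh37 lists *NMRAL2P* and *TRIM16L* as transcribed unprocessed pseudogenes and the other 4 as protein-coding.

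The sequences of *TRIM16* and *TRIM16L* matter for every value of these 2 genes, because reads of 80 bases were assigned to one or the other. The whole transcript TRIM16L-201, of 1176 bases, could be laid without a gap on bases 1376 to 2551 of the *TRIM16* transcript TRIM16-212, and 1173 of the aligned bases lay in the *TRIM16* coding sequence. The 2 transcripts differed at 15 bases, which is an identity of 98.7%. The longest run without a difference was 220 bases. Of the 1097 windows of 80 bases in TRIM16L-201, 401 (36.6%) held no difference, so a single read from such a window does not tell the genes apart. The reads were paired-end, so the other end of a fragment could still hold a difference. The share of fragments without any difference was not measured. Over all annotated transcripts, 24.9% of the distinct 80-base words of *TRIM16L* were also present in *TRIM16*. The coding window with the most differences is shown first, at chr17:15532081-15532160 on the minus strand for *TRIM16* and at chr17:18638542-18638621 on the plus strand for *TRIM16L*, with the 4 differing bases in capitals.
TRIM16: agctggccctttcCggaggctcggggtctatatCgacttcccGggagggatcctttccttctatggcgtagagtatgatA
TRIM16L: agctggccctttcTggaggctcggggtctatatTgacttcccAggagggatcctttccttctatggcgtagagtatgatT
Counted from the first base of TRIM16L-201, with the *TRIM16* base first, these differences are C958T, C978T, G987A and A1024T. The next window, at chr17:15532413-15532492 for *TRIM16* and chr17:18638210-18638289 for *TRIM16L*, comes from the longest identical run and is the same in both genes.
TRIM16 and TRIM16L: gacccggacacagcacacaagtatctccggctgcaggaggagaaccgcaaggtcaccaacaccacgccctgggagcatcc

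The antioxidant response element was searched with the letters TGACTCAGC on both strands, from 2000 bases before to 2000 bases after the start of each gene's canonical transcript. Among 13229 expressed genes, those with at least 1 FPKM on average, 4.71% held a match in this window. *ABHD4* and *CABYR* held 1 match each, and *NMRAL2P*, *OSGIN1*, *TRIM16* and *TRIM16L* held none in this window. For *TRIM16L* the window lay around the start of the transcript TRIM16L-204, at chr17:18601323, upstream of the gene body given above. It did not reach that body, so the start of the quantified *TRIM16L* identifier was not searched. The match of *ABHD4* lay 757 bases after the start, in an intron, at chr14:23067952-23067980 on the plus strand. The match of *CABYR* lay upstream, at position -1762 from the start, outside annotated genes, at chr18:21717250-21717278 on the plus strand. Both are shown with 10 bases on each side and the match in capitals.
ABHD4: acgagaagaaTGACTCAGCtcccagccga
CABYR: catttcagaaTGACTCAGCcaaacagtca
With the looser letters TGACNNNGC, each of the 6 genes held at least 1 match in the same windows, and 77.9% of the 13229 genes did. A match is a description of the letters only, and binding was not measured in these libraries.

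Expression is given as FPKM, fragments scaled by transcript length and by the mapped fragments of the library, as deposited by the authors. The sums of the libraries' FPKM values differed by at most 1.18 times, and 12515 to 13573 genes per library reached 1 FPKM. The lines expressed the epithelial markers *KRT8*, *KRT18*, *EPCAM* and *CDH1* at 92.4 FPKM or more in each library. The lung adenocarcinoma markers *NKX2-1* and *NAPSA* were under 1 FPKM in the 4 ABC1 libraries, and in HCC4006 they were between 42.4 and 47.1 and between 12.9 and 16.0 FPKM. Of 8 markers of fibroblasts, blood and endothelium, *PTPRC*, *CD3E*, *DCN*, *LUM* and *CDH5* stayed under 1 FPKM. *COL1A1* reached 7.64, *COL1A2* 1.48 and *CD68* 102 FPKM, each in HCC4006. *PECAM1* was also planned as a marker, but no value is given for it, so *CDH5* alone stands for endothelium. The neuroendocrine markers *CHGA* and *SYP* reached 1.15 FPKM at most. In bulk libraries, fewer expressing cells and less RNA per cell cannot be told apart.

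The mean level of all 6 genes was higher with DEM than with vehicle in both lines. In each gene and line, both DEM libraries lay above both vehicle libraries. The same was true of 25.5% of the 12635 genes fitted in ABC1 and of 29.3% of the 13542 genes fitted in HCC4006, and since the genes were chosen for this response nothing is read from the difference. The fits used limma on log2(FPKM + 1), and log2 fold changes below are on that scale, which understates the change of genes with a low level. On this scale the 6 genes had a median change of 2.23 in ABC1 and of 2.04 in HCC4006, beside -0.02 and -0.03 over all genes fitted. All 6 genes passed the minimum of 1 FPKM on average in both fits, *NMRAL2P* in ABC1 only through its DEM libraries. The rule has no threshold, and the smallest of the 6 responses was that of *TRIM16* in both lines.

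**Figure D1:**
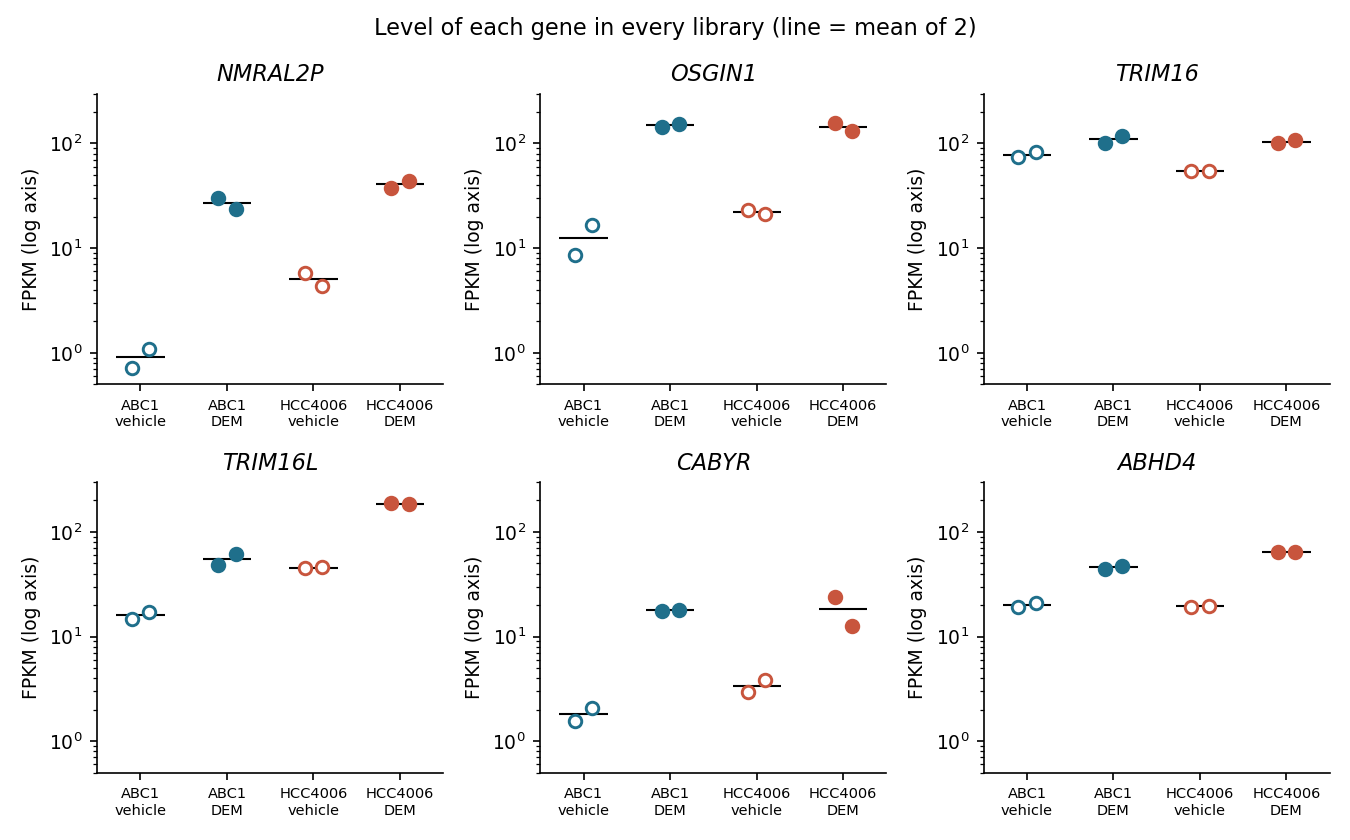
FPKM of each of the 6 genes on a log axis in every library, by group, with open points for vehicle, filled points for DEM and a line at the mean of the 2 libraries. Every filled point lies above both open points of its line, and the gap is widest for *NMRAL2P* in ABC1, from 0.906 to 27.0 FPKM in the mean.

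*NMRAL2P*, the pseudogene, had 0.716 and 1.10 FPKM in the ABC1 vehicle libraries and 30.3 and 23.7 FPKM in the ABC1 DEM libraries. In HCC4006 it had 5.83 and 4.34 FPKM with vehicle and 37.3 and 43.7 FPKM with DEM. The 4 groups did not overlap, and their order from the lowest was ABC1 vehicle, HCC4006 vehicle, ABC1 DEM and HCC4006 DEM. The mean with DEM was 29.8 times that with vehicle in ABC1 and 7.97 times in HCC4006. On the log2 scale the change was 3.87 (SE 0.19) in ABC1, where it ranked 1 of 12635 genes, and 2.78 (SE 0.15) in HCC4006, where it ranked 7 of 13542. With a pseudocount of 0.1 the change in ABC1 was 4.77. The coding relative *NMRAL1* had 51.8 and 54.2 FPKM with vehicle and 45.7 and 46.0 FPKM with DEM in ABC1. In HCC4006 *NMRAL1* had 59.6 and 60.0 FPKM with vehicle and 47.1 and 54.5 FPKM with DEM. Its log2 fold changes of -0.20 and -0.23 were not called (adjusted p = 0.363 in ABC1 and 0.121 in HCC4006 by limma).

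*OSGIN1*, the growth inhibitor, had 8.55 and 16.5 FPKM in the ABC1 vehicle libraries and 145 and 154 FPKM with DEM. The HCC4006 libraries had 22.9 and 21.4 FPKM with vehicle and 157 and 133 FPKM with DEM. The DEM libraries of the 2 lines overlapped, whereas both HCC4006 vehicle libraries lay above both ABC1 vehicle libraries. The DEM mean was 11.9 times the vehicle mean in ABC1 and 6.53 times in HCC4006, with log2 fold changes of 3.54 (SE 0.28) and 2.65 (SE 0.10). The SE in ABC1 was the largest of the 6 genes in that line, and its ABC1 vehicle libraries differed by a larger factor than any other vehicle pair of the 6 genes. Without vehicle replicate 0 the change in ABC1 was 3.10, and without vehicle replicate 1 it was 3.98. Its paralog *OSGIN2* was called higher with DEM in HCC4006, from 15.4 and 17.2 FPKM to 31.3 and 33.7 FPKM (log2 fold change 0.96, SE 0.10, adjusted p = 0.00383 by limma). In ABC1 *OSGIN2* had 13.2 and 13.05 FPKM with vehicle and 23.3 and 21.1 FPKM with DEM, with a log2 fold change of 0.71 and an adjusted p of 0.0662 by limma. In 1 model of all 8 libraries and with a replicate block *OSGIN2* was called in ABC1 too (adjusted p = 0.00931 and 0.00859), and the difference between the lines was not tested.

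*TRIM16* had 73.4 and 83.0 FPKM in the ABC1 vehicle libraries and 102 and 118 FPKM with DEM. In HCC4006 it had 54.0 and 54.2 FPKM with vehicle and 101 and 107 FPKM with DEM. With vehicle it was the most abundant of the 6 genes in both lines, and it changed the least. The DEM mean was 1.41 times the vehicle mean in ABC1 and 1.92 times in HCC4006, with log2 fold changes of 0.49 (SE 0.14) and 0.93 (SE 0.07). These ranked 1060 of 12635 genes and 217 of 13542 genes, so *TRIM16* was not among the strongest responders.

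*TRIM16L* had 14.8 and 17.0 FPKM in the ABC1 vehicle libraries and 48.3 and 61.4 FPKM with DEM. The HCC4006 libraries had 44.8 and 46.5 FPKM with vehicle and 187 and 184 FPKM with DEM. The lowest ABC1 DEM library lay just above the highest HCC4006 vehicle library, and the 4 groups did not overlap. Its mean with DEM was 3.44 times that with vehicle in ABC1 and 4.06 times in HCC4006, with log2 fold changes of 1.72 (SE 0.16) and 2.00 (SE 0.07).

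The ratio of *TRIM16L* to *TRIM16* FPKM separated all 4 groups. It was 0.202 and 0.205 in ABC1 vehicle libraries and 0.474 and 0.518 in ABC1 DEM libraries. In HCC4006 it was 0.829 and 0.858 with vehicle and 1.86 and 1.72 with DEM, so *TRIM16L* exceeded *TRIM16* in the HCC4006 DEM libraries only. The mean ratio changed 2.44-fold in ABC1 and 2.12-fold in HCC4006. The share of *TRIM16L* in the sum of both was 16.9% ± 0.157 (SD, n = 2) in ABC1 with vehicle and 33.1% ± 1.41 (SD, n = 2) with DEM. In HCC4006 the share was 45.8% ± 0.595 (SD, n = 2) with vehicle and 64.1% ± 1.31 (SD, n = 2) with DEM. The sum still depends on how shared reads were divided, since a read adds more FPKM to the gene with fewer counts per FPKM (the values are given with the base means below). The sum was 94.2 ± 8.30 FPKM (SD, n = 2) in ABC1 and 99.7 ± 1.34 FPKM (SD, n = 2) in HCC4006 with vehicle, and 165 ± 20.9 and 289 ± 1.73 FPKM (SD, n = 2) with DEM. On the log2 scale the sum changed by 0.80 in ABC1 and by 1.53 in HCC4006. The ratios were not tested, since an exact permutation test of 2 values against 2 has a smallest two-sided p of 0.333.

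**Figure D2:**
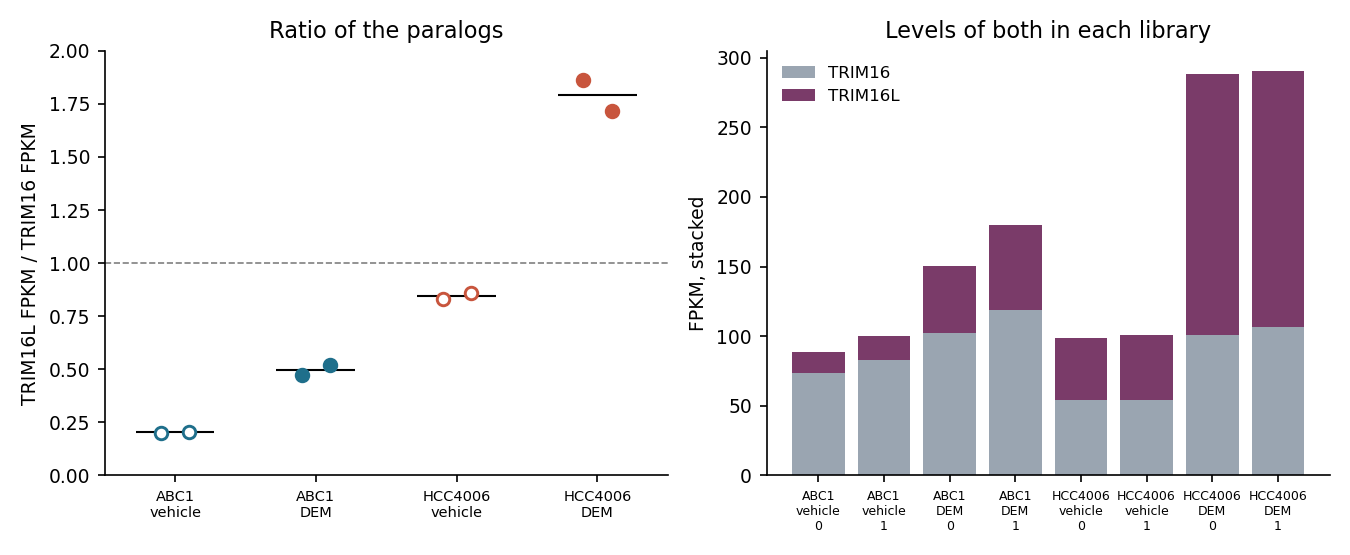
Left, ratio of *TRIM16L* to *TRIM16* FPKM in each library, with open points for vehicle, filled points for DEM, a line at the mean of 2 and a dashed line at 1. Right, FPKM of both genes stacked for each library, labelled by group and replicate. The ratio rises from 0.202 in the lowest ABC1 vehicle library to 1.86 in the highest HCC4006 DEM library, and only the HCC4006 DEM libraries lie above 1.

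A second measure that bears on the division of reads is the base mean, the mean count over the line's libraries at a common depth that the authors deposited for each line. The authors' base mean of *TRIM16* was 543 in ABC1 and 494 in HCC4006, and that of *TRIM16L* was 557 and 1673. Divided by the mean FPKM of the line, *TRIM16* had 5.77 and 6.25 counts per FPKM, and 8.33% and 8.20% of genes had fewer. *TRIM16L* had 15.7 and 14.5 counts per FPKM, whereas the median of all genes was 26.0 and 26.1. The other 4 genes lay between 16.1 and 35.8. Counts per FPKM depend on transcript length as well as on which reads were counted, and the part of each in the low value of *TRIM16* was not tested. The protein-coding gene ENSG00000251537, at chr17:15474805-15554967 on the same strand, overlaps *TRIM16* and covers both *TRIM16* windows shown above. It was listed at 0.232 FPKM or lower in each library, and how reads were divided between it and *TRIM16* is not settled. In the base means, *TRIM16* and *TRIM16L* were nearly equal in ABC1, although the mean FPKM over the same 4 libraries was 94.2 for *TRIM16* and 35.4 for *TRIM16L*.

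*CABYR*, the sperm tail gene, had 1.57 and 2.06 FPKM in the ABC1 vehicle libraries and 17.4 and 18.1 FPKM with DEM. The HCC4006 libraries had 2.94 and 3.83 FPKM with vehicle and 24.2 and 12.5 FPKM with DEM. The 2 HCC4006 DEM libraries enclosed the ABC1 DEM libraries, and they differed by a larger factor than any other pair of DEM libraries of these genes. The DEM mean was 9.78 times the vehicle mean in ABC1 and 5.42 times in HCC4006, with log2 fold changes of 2.74 (SE 0.16) and 2.08 (SE 0.29). Without HCC4006 DEM replicate 0 the change was 1.63, and without DEM replicate 1 it was 2.53. Its authors' base means, 176 and 175, were the smallest of the 6 genes. Other listed genes of the sperm tail's fibrous sheath were not expressed at such levels, except *SPA17*. *AKAP3*, *AKAP4*, *ROPN1*, *ROPN1B*, *ROPN1L*, *FSCB* and *SPAG8* were at 0.772 FPKM or lower in each library, and *AKAP4* and *ROPN1* were listed at 0 in all 8. *SPA17*, a sperm surface protein gene, had 7.87 and 11.4 FPKM with vehicle and 5.35 and 9.39 FPKM with DEM in ABC1. In HCC4006 *SPA17* had 8.55 and 7.12 FPKM with vehicle and 4.09 and 6.33 FPKM with DEM. With vehicle it thus lay above *CABYR* in both lines. It was the only gene of this list tested and was not called (log2 fold change -0.37, adjusted p = 0.494 in ABC1, and -0.53, adjusted p = 0.115 in HCC4006, by limma).

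*ABHD4*, the N-acyl phospholipid hydrolase, had 19.2 and 20.7 FPKM in the ABC1 vehicle libraries and 44.6 and 47.0 FPKM with DEM. In HCC4006 it had 19.4 and 19.6 FPKM with vehicle and 64.0 and 64.5 FPKM with DEM. The vehicle libraries of the 2 lines overlapped, and the DEM libraries did not. Its mean with DEM was 2.29 times that with vehicle in ABC1 and 3.30 times in HCC4006, with log2 fold changes of 1.16 (SE 0.12) and 1.67 (SE 0.07). Of the other 7 genes of the N-acylethanolamine route, 5 were tested in each line and 0 were called by limma, beside 1.2% of all genes in ABC1 and 19.1% in HCC4006. At an unadjusted p under 0.05 by limma there were 3 of 5 in ABC1, beside 2771 of all 12635 genes. In HCC4006 there were 0 of 5, beside 4985 of all 13542 genes. The tested genes were *NAPEPLD*, *GDE1*, *GDPD3* and *NAAA* in both lines, with *GDPD1* in ABC1 and *FAAH* in HCC4006. The median of the tested genes was -0.25 in ABC1 and -0.18 in HCC4006 on the log2 scale. *NAPEPLD*, whose enzyme competes for the same substrate, had 8.26 and 8.96 FPKM with vehicle and 5.45 and 6.39 FPKM with DEM in ABC1. Its log2 fold change was -0.48 in ABC1 (adjusted p = 0.155 by limma) and -0.19 in HCC4006 (adjusted p = 0.437 by limma). *GDPD3* had the lowest adjusted p of the list, 0.0696 by limma in ABC1, with 21.9 and 24.8 FPKM with vehicle and 12.9 and 14.4 FPKM with DEM. With a replicate block *GDPD3* and *GDPD1* were called in ABC1 (adjusted p = 0.00758 and 0.0273). *PLA2G4E* was under 0.03 FPKM in each library, *FAAH* was under 1 FPKM in ABC1 and *GDPD1* was under 1 FPKM in HCC4006.

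Between the lines, the log2 fold changes differed in both directions. HCC4006 minus ABC1 was -1.10 (SE 0.26) for *NMRAL2P*, -0.89 (SE 0.36) for *OSGIN1* and -0.66 (SE 0.38) for *CABYR*. It was 0.44 (SE 0.15) for *TRIM16*, 0.28 (SE 0.18) for *TRIM16L* and 0.51 (SE 0.12) for *ABHD4*. For *CABYR* and *TRIM16L* the difference was under 2 times its SE. These differences carry no p-value, since the choice of genes used both responses.

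The level without DEM was compared between the lines, although the vehicle libraries also entered the contrast by which the genes were chosen. By limma with Benjamini-Hochberg adjustment over 13747 genes, 67.7% of all genes differed between the vehicle libraries of HCC4006 and ABC1, 37.3% being higher and 30.4% lower in HCC4006. *NMRAL2P* was higher in HCC4006, with a vehicle mean of 5.08 FPKM beside 0.906 FPKM in ABC1. It passed the minimum of this fit only through its HCC4006 libraries and had to differ. Its log2 difference of 1.67 (SE 0.19) is therefore given with no test. *TRIM16L* was higher in HCC4006 by 1.46 on the log2 scale (SE 0.11, adjusted p = 1.97e-04). *OSGIN1* was higher by 0.84 (SE 0.29, adjusted p = 0.0484), and *CABYR* was higher by 0.64 (SE 0.17, adjusted p = 0.0218). *TRIM16* was lower in HCC4006, with a log2 difference of -0.52 (SE 0.10, adjusted p = 0.00610). The log2 difference of *ABHD4* was -0.03, with a 95% interval from -0.28 to 0.22 and an adjusted p of 0.787. With *NMRAL2P* counted in spite of this limit, 5 of the 6 genes were called, 4 of them higher in HCC4006, beside the 67.7% of all genes called. The vehicle libraries of the lines did not overlap for the same 5 genes, and this was true of 85.1% of all genes, with HCC4006 above ABC1 in 45.6%. The calls of *OSGIN1*, *TRIM16* and *CABYR* did not hold without HCC4006 vehicle replicate 0 (adjusted p = 0.290, 0.0824 and 0.0599) or without HCC4006 vehicle replicate 1 (adjusted p = 0.251, 0.0814 and 0.123). For *CABYR* the same was true without ABC1 vehicle replicate 0 (adjusted p = 0.0944). The difference of *OSGIN1* was 0.40 without ABC1 vehicle replicate 0 and 1.28 without ABC1 vehicle replicate 1.

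With DEM, the mean of HCC4006 over that of ABC1 was 0.969 for *OSGIN1*, 0.941 for *TRIM16* and 1.03 for *CABYR*. With vehicle the same ratios were 1.77, 0.692 and 1.86, so the levels of these 3 genes lay closer together with DEM. *NMRAL2P* had a ratio of 1.5 with DEM after 5.61 with vehicle. *TRIM16L* had nearly the same ratio in both conditions, 2.86 with vehicle and 3.38 with DEM. *ABHD4* went the other way, from 0.977 with vehicle to 1.4 with DEM.

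**Figure D3:**
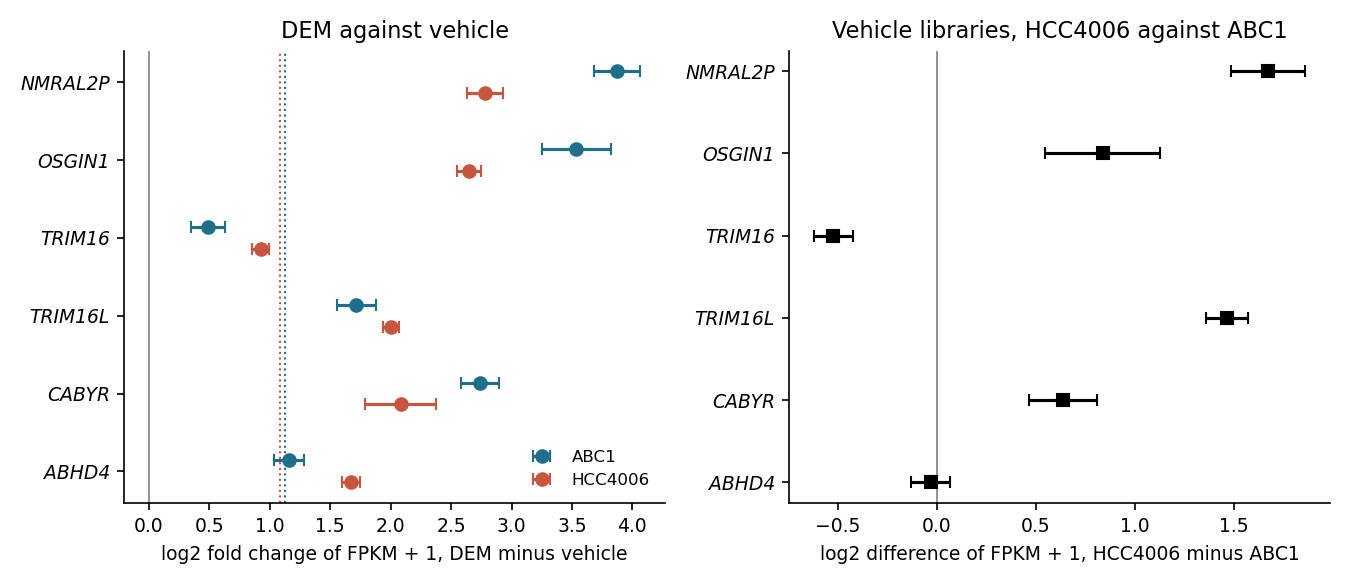
Left, log2 fold change of FPKM + 1 with DEM for each gene in ABC1 and HCC4006, with the SE as bars and dotted lines at the 99th percentile of all genes fitted in each line (1.13 in ABC1 and 1.09 in HCC4006). Right, log2 difference between the vehicle libraries of HCC4006 and ABC1, with the SE as bars. *TRIM16* lies below the dotted lines in both lines, and *ABHD4* lies at 0 on the right.

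The neighbours of the 6 genes were examined to see what else moved at each locus. The annotation held 97 further gene identifiers within 100 kb of the gene bodies, of which 54 were listed at 0 in all 8 libraries. *NMRAL2P* and *TRIM16L* have 2 annotated identifiers each, and here their bodies were taken over both. These spans were chr3:185677732-185698661 for *NMRAL2P* and chr17:18601311-18639431 for *TRIM16L*, and distances were measured from them. In ABC1, 15 of them passed the minimum of 1 FPKM and 1 was called higher by limma, beside 1.2% of all genes called in either direction. In HCC4006, 16 passed, but *RN7SL637P*, *NECAB2* and *CDRT1* did so only through their DEM libraries and had to differ, as did *RN7SL637P* in ABC1. These are given by their values, with no test. Of the other 13 in HCC4006, 3 were called higher and 1 lower, beside 19.1% of all genes, and no difference from the background is read from these counts. With any 1 HCC4006 library left out, *TTC39C* kept its call only without vehicle replicate 1, and *ETV5*, *TVP23B* and *TRA2B* lost theirs in each case.

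Beside *OSGIN1*, the calcium-binding protein gene *NECAB2* starts 1912 bases downstream on the same strand. *NECAB2* had 0.343 and 0.302 FPKM with vehicle and 2.3 and 1.75 FPKM with DEM in HCC4006. In ABC1 *NECAB2* had 0.138 and 0.327 FPKM with vehicle and 0.771 and 1.55 FPKM with DEM. Its authors' base means were only 10.3 in ABC1 and 18.9 in HCC4006. *MLYCD*, whose annotated body overlaps that of *OSGIN1* on the same strand, was not called, with log2 fold changes of -0.0017 and 0.28 (adjusted p = 0.996 and 0.102 by limma).

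Beside *NMRAL2P*, *RN7SL637P*, a pseudogene of the signal recognition particle RNA, lies 1164 bases downstream on the other strand. It was listed at 0 in all 4 vehicle libraries, at 1.10 and 4.79 FPKM in the ABC1 DEM libraries and at 3.68 and 4.97 FPKM in the HCC4006 DEM libraries. The authors' base mean was 0 in both lines, so no read was counted for it in that table. *ETV5*, an ETS transcription factor gene 65442 bases downstream, was called higher in HCC4006 with a log2 fold change of 0.44 (SE 0.09, adjusted p = 0.0251 by limma). In ABC1 *ETV5* had 9.59 and 12.0 FPKM with vehicle and 17.9 and 34.2 FPKM with DEM (adjusted p = 0.121 by limma, and 0.0367 in 1 model of all 8 libraries). *TRA2B*, a splicing regulator gene 21841 bases upstream, was called lower in HCC4006 with a log2 fold change of -0.33 (SE 0.07, adjusted p = 0.0297 by limma).

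Beside *CABYR*, the gene *TTC39C* ends 3377 bases upstream on the same strand. *TTC39C* had 2.97 and 3.28 FPKM with vehicle and 6.59 and 6.29 FPKM with DEM in HCC4006 (log2 fold change 0.85, SE 0.13, adjusted p = 0.0108 by limma). In ABC1 its log2 fold change was 0.70 (adjusted p = 0.148 by limma, and 0.0322 with a replicate block). *OSBPL1A*, 445 bases downstream on the other strand, was not called, with log2 fold changes of 0.40 in ABC1 and -0.03 in HCC4006 (adjusted p = 0.160 and 0.836 by limma). An antisense transcript over *CABYR*, ENSG00000265750, was between 0.102 and 0.282 FPKM in the 4 vehicle libraries and between 0.667 and 1.70 FPKM in the 4 DEM libraries. It was under the minimum for a test, and whether its reads were kept apart from those of *CABYR* by strand in the estimation is not given in the sources used here.

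Beside *TRIM16L*, *TVP23B*, a Golgi membrane protein gene 44993 bases downstream, was called higher in both lines. It had 12.9 and 13.2 FPKM with vehicle and 31.2 and 27.4 FPKM with DEM in ABC1 (log2 fold change 1.11, SE 0.13, adjusted p = 0.0365 by limma). In HCC4006 it had 14.3 and 16.8 FPKM with vehicle and 20.1 and 22.4 FPKM with DEM (log2 fold change 0.43, SE 0.11, adjusted p = 0.0491 by limma). Both calls were lost when any 1 library of the line was left out. *TVP23B* has a near copy, *TVP23C*, downstream of *TRIM16*, so reads could be divided between them as for the *TRIM16* pair. *TVP23C* had log2 fold changes of -0.21 in ABC1 and 0.36 in HCC4006 and was not called (adjusted p = 0.634 and 0.321 by limma). *CDRT1*, downstream of *TRIM16*, had 0.916 and 0.524 FPKM with vehicle and 1.22 and 1.94 FPKM with DEM in HCC4006. None of the 5 fitted neighbours of *TRIM16* was called in ABC1. In HCC4006 *CDRT1* carries no test, and none of the other fitted neighbours of *TRIM16* was called. *DAD1*, the only tested neighbour of *ABHD4*, was not called in either line (adjusted p = 0.279 in ABC1 and 0.158 in HCC4006 by limma).

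**Figure D4:**
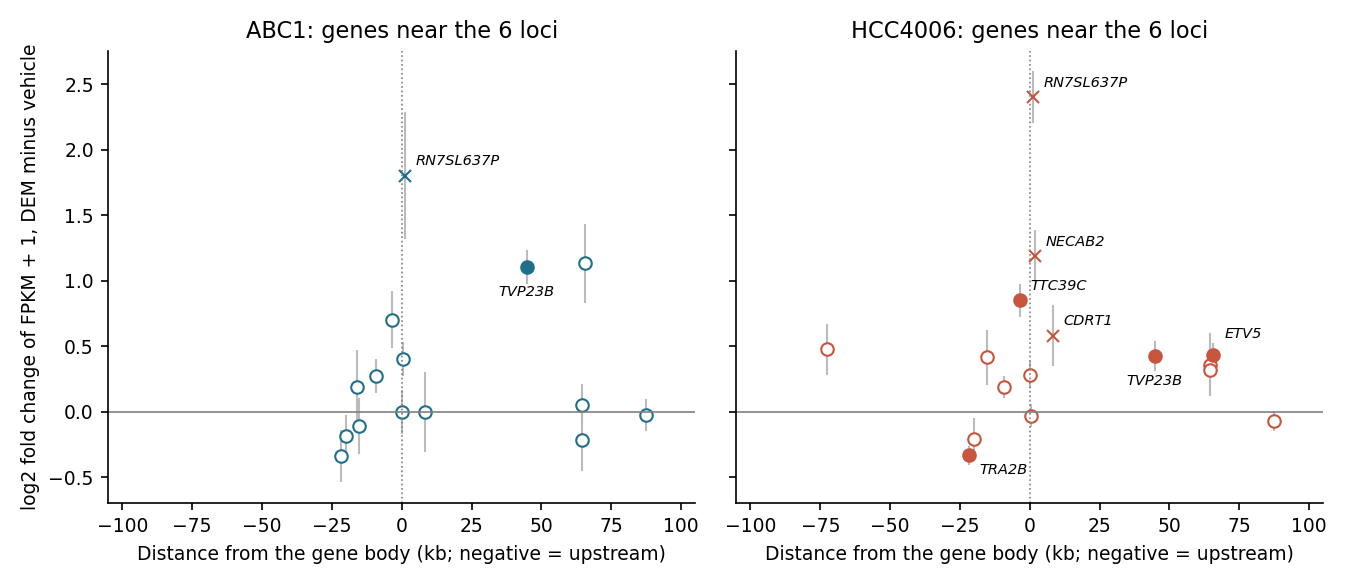
Log2 fold change of FPKM + 1 with DEM for the genes within 100 kb of the 6 gene bodies that passed the minimum, against their distance in kb (negative is upstream, 0 is overlapping), with the SE as bars. Filled points were called at an adjusted p under 0.05 by limma, 1 in ABC1 and 4 in HCC4006, and crosses are genes that passed the minimum only through their DEM libraries and carry no test. *TTC39C*, 3377 bases upstream of *CABYR*, is the highest filled point in HCC4006.

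Known NRF2 targets were set beside the 6 genes as a reference. By limma, 10 of the 17 tested were called higher and 0 lower in ABC1, with a median log2 fold change of 1.61, and 0.768% of all genes were called higher. In HCC4006, 19 of 19 were called higher, with a median of 1.27, and 8.45% of all genes were called higher. Without ABC1 vehicle replicate 0 or 1 the number in ABC1 was 4 or 5. The largest changes in ABC1 were those of *AKR1C1*, an aldo-keto reductase with near-identical relatives (3.25), *GCLC*, the catalytic subunit of glutathione synthesis (3.21, SE 0.21, adjusted p = 0.00798), and the heme oxygenase *HMOX1* (3.19, SE 0.13, adjusted p = 0.00428). *AKR1C1* passed the minimum in ABC1 only through its DEM libraries, from 0.863 and 0.834 FPKM to 15.8 and 17.5 FPKM, and without it 9 of 16 targets were called. In HCC4006 the largest were *HMOX1* (3.09, SE 0.09), the cystine transporter *SLC7A11* (2.76, SE 0.09) and the sulfiredoxin *SRXN1* (2.70, SE 0.07), with adjusted p of 8.8e-05, 1.3e-04 and 8.8e-05 by limma. In ABC1 the log2 fold change of *NMRAL2P* was above those of the tested NRF2 targets of the list. That of *OSGIN1* was above them with a pseudocount of 1 (3.54, beside 3.25 for *AKR1C1*) but not with 0.1 (3.64, beside 4.14 for *AKR1C1*). In HCC4006 *NMRAL2P* was below *HMOX1* only.

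Among the partners of *TRIM16* in the response to lysosome damage, all 7 were tested. By limma 1 was called in ABC1 and 2 in HCC4006, beside 1.2% and 19.1% of all genes. *SQSTM1* is also one of the NRF2 targets counted above, so its calls appear in both lists. The autophagy receptor *SQSTM1* was called higher in both lines, from 183 and 199 FPKM to 644 and 609 FPKM in ABC1 (log2 fold change 1.71, SE 0.13, adjusted p = 0.0158 by limma) and from 965 and 924 FPKM to 2242 and 2273 FPKM in HCC4006 (1.26, SE 0.06, adjusted p = 5.2e-04 by limma). The call of *SQSTM1* in ABC1 did not hold without either vehicle library (adjusted p = 0.207 and 0.142). *TFEB*, the regulator of lysosome genes, was called in HCC4006, from 2.01 and 1.71 FPKM to 3.48 and 3.78 FPKM (0.70, SE 0.15, adjusted p = 0.0295 by limma), and leaving out any 1 library ended this call. In ABC1 the log2 fold change of *TFEB* was 0.58 (adjusted p = 0.127 by limma, and 0.0438 in 1 model of all 8 libraries), and the difference between the lines was not tested. The galectins *LGALS3* and *LGALS8*, the kinase *ULK1*, *BECN1* and *ATG16L1* were not called in either line. In 1 model of all 8 libraries *ULK1* and *ATG16L1* were called in ABC1 (adjusted p = 0.0420 and 0.0283), and with a replicate block *ULK1*, *ATG16L1* and *LGALS3* were (0.0121, 0.0382 and 0.0430). In the fits per line their log2 fold changes lay between -0.34 and 0.76, and the highest was that of *ULK1* in ABC1 (adjusted p = 0.0789 by limma).

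The other members of the *TRIM* and *ABHD* families were counted in the same way. Of 66 numbered *TRIM* genes besides *TRIM16*, 35 were fitted in ABC1 and 0 were called by limma, beside 1.2% of all genes. Their median log2 fold change was -0.10. By limma 7 of them had an unadjusted p under 0.05, beside 2771 of all 12635 genes. In HCC4006, 42 were fitted, 3 were called higher and 4 lower, beside 8.45% and 10.7% of all genes, with a median of 0.01. The largest changes were those of *TRIM6* (-1.41, SE 0.15, adjusted p = 0.00459), *TRIM54* (1.09) and *TRIM55* (-1.0, SE 0.11, adjusted p = 0.00479 by limma). *TRIM54* passed the minimum only through its DEM libraries, from 0.549 and 0.366 FPKM to 2.10 and 2.11 FPKM, and without it 2 of 41 were called higher and 4 lower. *TRIM6* had 16.8 and 13.005 FPKM with vehicle and 4.58 and 5.36 FPKM with DEM in HCC4006. In ABC1 *TRIM6* had 2.34 and 2.95 FPKM with vehicle and 0.418 and 0.410 FPKM with DEM, and passed the minimum only through its vehicle libraries. Of 20 other *ABHD* genes, 17 were fitted in ABC1 and 18 in HCC4006, with medians of -0.06 and 0.09, and 1 and 2 were called, beside 1.2% and 19.1% of all genes. *ABHD3*, a phospholipase gene, was called higher in both lines. It had 11.6 and 13.6 FPKM with vehicle and 30.1 and 30.2 FPKM with DEM in ABC1 (1.20, SE 0.13, adjusted p = 0.0346 by limma). In HCC4006 *ABHD3* had 21.2 and 27.3 FPKM with vehicle and 49.9 and 50.6 FPKM with DEM (1.03, SE 0.12, adjusted p = 0.00630 by limma). The ABC1 call of *ABHD3* was lost when any 1 library was left out. *ABHD2* was called higher in HCC4006 (0.86, SE 0.06, adjusted p = 0.00173 by limma). *ABHD5*, the closest relative of *ABHD4*, had log2 fold changes of 0.18 and 0.05 and was not called (adjusted p = 0.503 and 0.699 by limma).

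For each gene, the genes with the most similar pattern over the 8 libraries were found by Pearson's r of log2(FPKM + 1) among 13682 genes. The libraries share 2 lines and 2 conditions, so high values are common and r is given as a description. The nearest to *NMRAL2P* were *KANSL3* (0.998), *TESK1* (0.992) and *WIPI2* (0.992). The nearest to *OSGIN1* were *TESK1* (0.990), *IFRD1* (0.987) and *ASNS* (0.985). *UXS1* (0.994), *MACIR* (0.987) and *FTL* (0.984) were nearest to *TRIM16*, whereas *YWHAG* (0.994), *NDEL1* (0.991) and *HTATIP2* (0.989) were nearest to *TRIM16L*. *OSGIN1* itself (0.983) was nearest to *CABYR*, followed by *FBXO30* (0.981) and *ZNF771* (0.974). *TXNRD1* (0.997), *BLVRB* (0.992) and *ZBTB21* (0.989) were nearest to *ABHD4*. Between the paralogs *TRIM16* and *TRIM16L* r was 0.44 over the 8 libraries, and they stood in opposite order between the lines with vehicle. After the mean of each line was taken off, their r was 0.97. Both were chosen for their rise with DEM, so a high r within a line was largely set by that choice. Among all pairs of the chosen genes this r ran from 0.87 (*TRIM16* and *CABYR*) to 0.99 (*TRIM16L* and *ABHD4*). Between *TRIM16* and *ABHD4* it was 0.98, so nothing particular to the paralogs is read from 0.97.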

How the data were processed

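The 8 libraries were grouped by the labels' line and condition. The authors deposited FPKM values per gene and library. The study's methods name TopHat and Cufflinks, whereas the submitters' processing notes name STAR 2.5.3a, Cuffnorm, HTSeq and DESeq2 on hg19, so how reads shared by *TRIM16* and *TRIM16L* were divided is not settled. The authors' own comparison tables hold a base mean (a depth-scaled count signal per gene, deposited as 1 mean per line), fold changes and p-values. Only the base mean was used.

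Symbols were matched to 55534 of 57815 identifiers with GENCODE on GRCh37. DEM was compared with vehicle per line, and HCC4006 with ABC1 among vehicle libraries, by limma 3.58.1 (R 4.3.3) with a mean-variance trend on log2(FPKM + 1), on genes averaging 1 FPKM or more, called at a Benjamini-Hochberg adjusted p under 0.05. The scripts were tested on simulated data. The base means give depth only per line, so no counting interval is given. The members, lists and tests were chosen with earlier results of these data known. Named genes were the 6 members, called neighbours (up to 5 per locus), the 3 largest called changes of each list and line, all genes of lists of at most 8, and the 3 most similar genes per member. *MLYCD*, *OSBPL1A*, *TVP23C*, *CDRT1*, *DAD1*, ENSG00000251537 and ENSG00000265750 were named after their values were seen. Alternatives were another pseudocount, no minimum, median-of-ratios scaling, no trend, 1 model of all 8 libraries, a replicate block, each library left out, and summed paralogs.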

Additional observations from a re-analysis of the deposited data

How the results depend on the processing

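The log2 fold changes of the 6 genes with DEM stayed above 0 under all 124 recalculations. Their median was 2.5 in ABC1 and 2.18 in HCC4006 with a pseudocount of 0.1, and 1.83 to 2.27 in HCC4006 with each library left out. The *TRIM16L* to *TRIM16* ratio of the ABC1 vehicle group was 0.214 with a pseudocount of 1.

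The vehicle difference of *OSGIN1* lost its call with a pseudocount of 0.1 (0.89), without a minimum and without the trend (0.84 in both), and ran from 0.40 to 1.28 with each library left out. That of *TRIM16* ran from -0.61 to -0.43. That of *CABYR* lost its call without a minimum and in 1 model of all 8 libraries (0.64 in both), and ran from 0.49 to 0.78.

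The number of genes called higher and lower in ABC1, 97 and 55, was 0 and 0 without a minimum (3883 genes had an unadjusted p under 0.05, by limma), 158 and 93 with median-of-ratios scaling, 27 and 6 without the trend, 738 and 756 in 1 model of all 8 libraries, and 10 to 51 and 8 to 18 with each library left out. In HCC4006, 1144 and 1447 became 177 and 193 without a minimum, 706 and 847 in 1 model of all 8 libraries, and 290 to 464 and 344 to 564 with each library left out. Between the vehicle groups, 5121 and 4184 became 3055 to 5356 and 2517 to 4028 with each library left out. A lone library left in a group was assumed to vary like the others.

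Neighbours called, 1 in ABC1 and 6 in HCC4006 with *RN7SL637P* and *NECAB2* counted, were 0, 0, 4 and 0 to 2 in ABC1 without a minimum, without the trend, in 1 model of all 8 libraries and with each library left out, and 0, 2 and 1 to 2 in HCC4006 without a minimum, in 1 model and with each library left out. NRF2 targets called without a minimum were 0 in ABC1 and 12 in HCC4006, and 4 to 9 in ABC1 with each library left out. Genes of the other 6 lists called were 0, 1, 9 and 0 to 1 in ABC1 without a minimum, without the trend, in 1 model and with each library left out, beside 2, and 2, 7 and 6 to 10 in HCC4006 without a minimum, in 1 model and with each library left out, beside 12. *RN7SL637P* was also among the neighbours counted in ABC1 under some alternatives, among them 1 model of all 8 libraries and the replicate block. *TRIM54* was among the 12 genes of the other lists in HCC4006. As these genes passed the minimum only through their DEM libraries, nothing is read from their part in the counts. By Spearman's rho, 5 of the 18 most similar genes were shared.

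Whether the replicate numbers of the titles pair the libraries is not settled, and the main fits treated the libraries as unpaired. Deviations of same-numbered libraries correlated at 0.258 in ABC1 and 0.0544 in HCC4006, and 2 replicate numbers cannot decide the question. With the replicate block, 1185 and 1163 genes were called in ABC1, with 5 neighbours and 14 genes of the other lists, and no call on the 6 genes between the vehicle groups changed.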
